A study of Mus musculus with 18 samples.

Results

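Pramel6, Pramel7, Calcoco2, Rhox5, Rhox6, Rhox9 and Dppa3 are genes that are transcribed in mouse embryos before implantation, in the placenta or in the germ line. Every probe set whose chip annotation names one of these genes and no other was taken. This gave 7 probe sets of the 36701 that are not controls, 1 for each gene. Of these, 6 lie on the chip U74Av2 and that of Rhox9 lies on U74Cv2. A probe set is the group of short probes on the chip by which a transcript is read, and the names of the 7 hold no suffix for possible cross-hybridization. The genes were chosen with the difference between the groups in view. The study had picked Pramel6, Pramel7, Calcoco2 (under its older name Ndp52), Rhox5 and Dppa3 for that difference on the same arrays, and Rhox6 and Rhox9 stand in neither of its lists. All differences between the groups are therefore given as descriptions of these dishes, and where calls of a fit over all probe sets are counted, nothing is read from them about these genes. The study also reported quantitative PCR for Pramel6, Pramel7, Calcoco2, Rhox5 and Dppa3, in the same direction as its arrays. Those values are not used here.

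Embryonic stem (ES) cells of the mouse strain FVB/N were compared in 2 groups. The WT cells carry no transgene and were kept in 1000 units/ml LIF, the cytokine that activates STAT3. The cells of line 743 overexpress STAT3-MER, a fusion of STAT3 with a modified hormone-binding domain of the estrogen receptor under a chicken β-actin promoter, and were kept in 1 μM OHT (4-hydroxytamoxifen), which activates the fusion, without LIF. Each group comprised 3 separately cultivated dishes, and RNA of each dish was amplified in 2 rounds and hybridized to the 3 chips of the set, which gave 18 arrays. Transgene, cell line, OHT and the absence of LIF changed together and cannot be told apart. The dishes of a group come from a single line, so that the spread is that between dishes. Both lines had been derived on a layer of mouse embryonic fibroblasts, whose RNA a dish may also hold. In such bulk samples fewer cells of a type and less RNA per cell cannot be told apart.

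PRAMEL proteins are leucine-rich repeat proteins of the PRAME family, whose genes are active in the oocyte, the early embryo and the testis. PRAMEL7 works with a Cullin-2 ubiquitin ligase to send UHRF1, the partner of the maintenance DNA methyltransferase DNMT1, to degradation, and DPPA3 (Stella), a maternal protein of the oocyte, also holds UHRF1 back. The Rhox genes are a cluster of homeobox genes on the X chromosome with roles in testis, ovary and placenta, and Rhox5 (Pem) is its founding member. Calcoco2 encodes NDP52, a receptor of selective autophagy.

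The promoters of Pramel6, Pramel7 and Rhox5 are shown, the members for which the promoter table held a sequence. Over all dishes their signals, like that of Calcoco2, varied together, largely through WT replicate 3 and most of all so for Rhox5. Each runs from 250 bases before to 50 bases after the RefSeq start of the gene on GRCm38.p6, written 5′ to 3′ on the strand of the gene, with CpG dinucleotides in capitals. The window of Pramel6 is chr2:87506315-87506614 on the plus strand, that of Pramel7 is chr2:87492369-87492668 on the minus strand, and that of Rhox5 is chrX:37754358-37754657 on the plus strand.
Pramel6: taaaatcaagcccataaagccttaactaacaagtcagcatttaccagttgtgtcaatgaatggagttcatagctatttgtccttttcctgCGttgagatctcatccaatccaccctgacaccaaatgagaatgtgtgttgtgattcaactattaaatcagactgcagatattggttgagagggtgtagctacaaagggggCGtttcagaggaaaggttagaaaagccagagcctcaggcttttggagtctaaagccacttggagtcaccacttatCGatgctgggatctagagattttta
Pramel7: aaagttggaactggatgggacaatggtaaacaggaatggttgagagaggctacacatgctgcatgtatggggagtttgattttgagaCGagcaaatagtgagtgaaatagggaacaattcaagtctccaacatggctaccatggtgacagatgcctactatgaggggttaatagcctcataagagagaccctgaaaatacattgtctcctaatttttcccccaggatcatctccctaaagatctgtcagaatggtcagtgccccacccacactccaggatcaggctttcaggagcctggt
Rhox5: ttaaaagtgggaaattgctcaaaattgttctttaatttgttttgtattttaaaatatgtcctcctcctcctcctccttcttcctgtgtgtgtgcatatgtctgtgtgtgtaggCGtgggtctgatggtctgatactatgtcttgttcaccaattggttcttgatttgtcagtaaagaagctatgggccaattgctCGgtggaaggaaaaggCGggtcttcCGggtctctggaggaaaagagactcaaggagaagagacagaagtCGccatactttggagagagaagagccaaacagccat
Pramel6 and Pramel7 lie next to each other on chromosome 2 and are read in opposite directions. CpG dinucleotides numbered 1 in Pramel7, 3 in Pramel6 and 5 in Rhox5, all below the median. Over 32851 promoter windows of the same length the median was 7 and the lower quartile 3. As few as in Pramel7 or fewer were found in 14.1% of all windows, as few as in Pramel6 in 31.4% and as few as in Rhox5 in 43.6%. The motif TTCNNNGAA, the palindrome that STAT dimers recognize, had 0 matches in the 3 windows on either strand, and 8.30% of all windows hold it. The octamer ATGCAAAT, which POU factors bind, had 0 matches as well and occurs in 1.74% of all windows. Neither motif overlaps the other in these counts, and a window without a match says nothing of sites elsewhere. Promoters of Calcoco2, Rhox6, Rhox9 and Dppa3 were not used here.

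Signals are linear intensities. Before scaling, the trimmed mean of an array (2% left out at either end) was 492 to 497. The arrays of each chip were then scaled to the same trimmed mean. Replicate numbers need care before dishes are set side by side. The label of one STAT3-MER array of U74Av2 gives no number, and the array was taken as replicate 2, the number left over. The deviations of the dishes from their group means were compared on genes that 2 chips read. WT replicate 1 of U74Av2 resembled WT replicate 2 of U74Bv2 (r = 0.28 over 794 genes) and of U74Cv2 (r = 0.24 over 815 genes). The correlation of WT replicate 1 with its own number was -0.25 and -0.13. The STAT3-MER numbers matched on these chips, with r = 0.22 and r = 0.21 for the unnumbered array. WT numbers 1 and 2 were therefore not joined between chips, which concerns Rhox9 against the other genes.

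Pramel6 had the largest difference between the groups among the 7 genes. Its signal was 563, 331 and 34.4 (WT replicates 1 to 3) against 1247, 917 and 1747 (STAT3-MER replicates 1 to 3). The lowest STAT3-MER dish exceeded the highest WT dish, and WT replicate 3 was far below the other two. The means were 309.7 ± 265 (WT) against 1304 ± 418 (STAT3-MER; SD, n = 3 each), a ratio of 4.21. On the scale log2(signal + 32), which understates the change of dim probe sets, the log2 fold change was 2.41 ± 0.72, where the error is the standard error from limma, as with every log2 fold change below, while signals carry SDs. The lowest WT dish lay in the dim part of the array, and the gap between the lowest STAT3-MER dish and the highest WT dish was 1.63 times. Without WT replicate 3 the log2 fold change was 1.47 ± 0.35.

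Pramel7, its neighbour and the gene of the UHRF1 antagonist, showed the same order of dishes. It gave 539.9, 412 and 95.3 (WT replicates 1 to 3) against 1027, 738 and 1248 (STAT3-MER replicates 1 to 3). The groups did not overlap, WT replicate 3 was again the lowest dish and STAT3-MER replicate 3 the highest. The means of 349 ± 229 and 1004 ± 256 (SD, n = 3 each) differ by a ratio of 2.88, and the log2 fold change was 1.67 ± 0.53. It was 1.01 ± 0.28 without WT replicate 3. Among the probe sets of an array, Pramel6 was brighter than 27.4% in its dimmest dish and than 90.8% in its brightest, and Pramel7 than 43.9% and 87.1%.

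Calcoco2, the autophagy receptor gene, followed at a smaller difference. Its signal was 571, 297 and 107 (WT replicates 1 to 3) against 738, 664 and 853 (STAT3-MER replicates 1 to 3). The groups did not overlap, but the lowest STAT3-MER dish was only 1.16 times the highest WT dish, the smallest gap among the genes without overlap. The means were 325 ± 233 and 752 ± 94.9 (SD, n = 3 each), a ratio of 2.31, with a log2 fold change of 1.37 ± 0.48, which without WT replicate 3 became 0.81 ± 0.31.

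Rhox5 was bright in every dish. It read 8435, 8362 and 3661 (WT replicates 1 to 3) against 11506, 11888 and 14110.1 (STAT3-MER replicates 1 to 3). WT replicate 3 was the lowest dish, the other WT dishes were nearly alike, and all STAT3-MER dishes lay above them. The means were 6819.7 ± 2735 and 12501 ± 1406 (SD, n = 3 each), a ratio of 1.83. The log2 fold change was 0.96 ± 0.33, and it was 0.57 ± 0.20 without WT replicate 3. Rhox5 stood above 96.2% of the probe sets of the array in its lowest dish and above 99.3% in its highest.

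**Figure D1:**
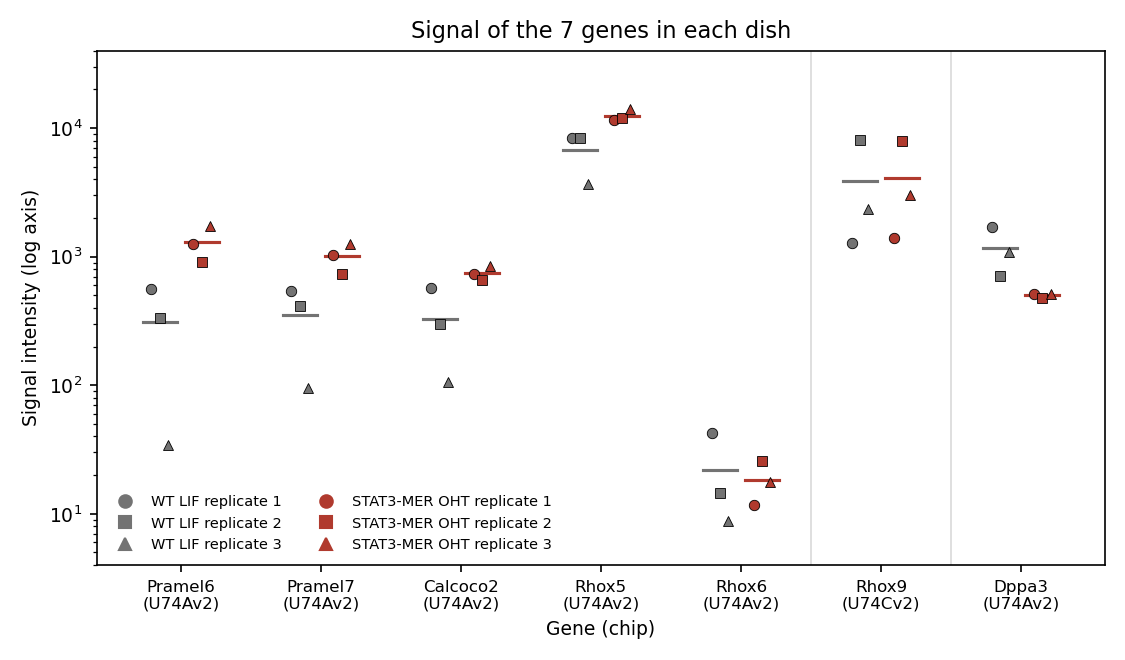
Signal intensity (log axis) of each of the 7 genes in the 3 WT LIF dishes (grey) and the 3 STAT3-MER OHT dishes (red), in which the shape of a marker gives the replicate number and a line the mean of a group; Rhox9 was read on another chip than the rest, and its WT replicates 1 and 2 are not joined to those of U74Av2. The groups are apart for Pramel6, Pramel7, Calcoco2, Rhox5 and, in the other direction, Dppa3, and overlap for Rhox6 and Rhox9, and WT replicate 3 is the lowest dish for the first 4 genes.

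The other Rhox genes did not separate the groups. Rhox6, a homeobox gene known from the placenta, read 42.3, 14.6 and 8.74 (WT replicates 1 to 3) against 11.7, 25.9 and 17.7 (STAT3-MER replicates 1 to 3). All of these values are in the dim part of the array, above no more than 27.8% of its probe sets, and the STAT3-MER dishes lay within the range of the WT dishes. The log2 fold change was -0.05 ± 0.25 and changed sign without WT replicate 1 (0.20) or STAT3-MER replicate 1 (0.04). Rhox9, its close relative, was bright and read 1281, 8083 and 2346 (WT replicates 1 to 3) against 1399, 7923 and 3023 (STAT3-MER replicates 1 to 3) on U74Cv2. The dish numbered 2 was the highest in both groups, by 6.31 times over the lowest WT dish and by 5.66 times over the lowest STAT3-MER dish, and the ranges of the groups were nearly the same. The means were 3903 ± 3659 and 4115 ± 3396 (SD, n = 3 each). The log2 fold change was 0.15 ± 0.72 and ran from -0.49 to 0.89 as single dishes were left out. By RefSeq, Rhox5, Rhox6 and Rhox9 lie in 1 cluster on the X chromosome. Rhox5 and Rhox6 have a fold change on the same chip, 0.96 and -0.05 on the log2 scale, and whether these differ was not tested.

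Dppa3, the maternal factor also called Stella, was the member that was lower in STAT3-MER cells. Its signal was 1706, 709.9 and 1093 (WT replicates 1 to 3) against 509, 476 and 514 (STAT3-MER replicates 1 to 3). All STAT3-MER dishes lay below all WT dishes and differed among themselves by only 1.08 times, whereas the WT dishes differed by 2.40 times. The means were 1169.8 ± 503 and 499.8 ± 20.7 (SD, n = 3 each), WT being 2.34 times STAT3-MER. The log2 fold change was -1.09 ± 0.30, against -0.78 ± 0.25 without WT replicate 1, the highest WT dish. Its WT order differs from that of Pramel6, since WT replicate 2 and not replicate 3 was the lowest.

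Over the 7 genes, the dishes of the groups did not overlap for 4 that were higher and 1 that was lower in STAT3-MER cells. Over all 36701 probe sets this was the case for 4.47% that were higher and 3.65% that were lower, 8.12% in all, and as the genes were chosen on this contrast nothing is read from their count. At an adjusted p under 0.05 (limma, Benjamini-Hochberg over all probe sets) 0 of the 7 passed, where 0.00272% of all probe sets passed, a single one. At an unadjusted p under 0.05 from limma there were 4 higher and 1 lower, against 1.86% and 1.58% of all probe sets (3.44% together). Criteria like those of the methods (p under 0.1 by the methods' t-test without adjustment, means more than 100 apart, and a ratio over 1.5) took 4 higher and 0 lower with unequal variances, against 1.1% and 0.88% of all (1.98% together). With equal variances they took 4 higher and 1 lower, against 1.42% and 1.19% (2.61% together). Of all probe sets, 6 had a log2 fold change at least as high as that of Pramel6, itself included.

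**Figure D2:**
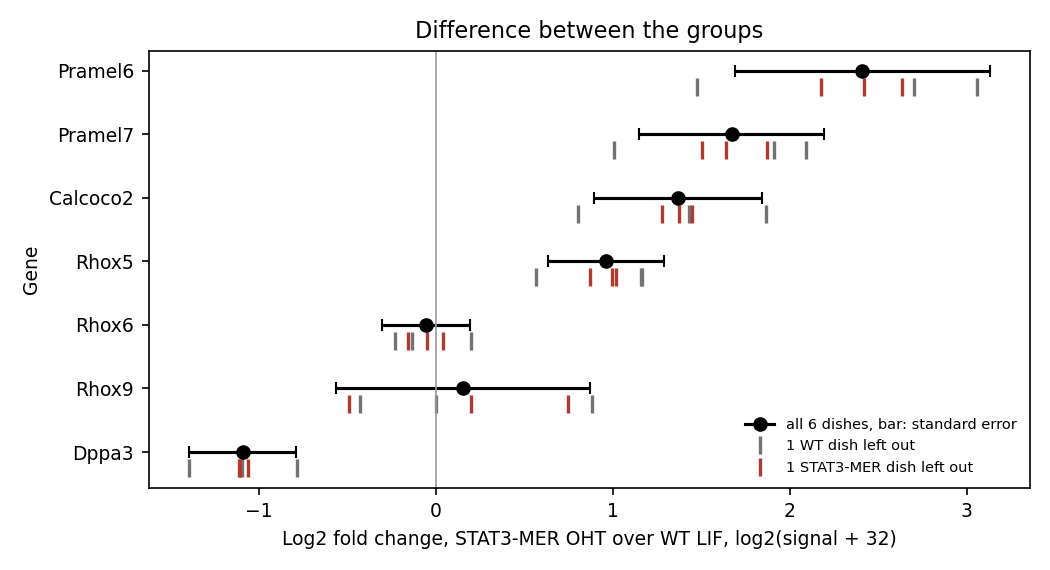
Log2 fold change of the 7 genes, STAT3-MER OHT over WT LIF on the scale log2(signal + 32), as black points whose bars are standard errors (limma); the ticks under each point give the value with 1 WT dish (grey) or 1 STAT3-MER dish (red) left out. The lowest tick of Pramel6, Pramel7, Calcoco2 and Rhox5, at 1.47, 1.01, 0.81 and 0.57, is that without WT replicate 3, and the ticks of Rhox6 and Rhox9 lie on both sides of 0.

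Within the groups, Pramel6, Pramel7, Calcoco2 and Rhox5 varied together over all dishes, largely through WT replicate 3 and most of all so for Rhox5. Each dish was expressed as its deviation from the mean of its own group in log2(signal + 32), which takes the difference between the groups out. Pramel6 deviated by 1.29, 0.58 and -1.87 in WT replicates 1 to 3 and by -0.02, -0.45 and 0.46 in STAT3-MER replicates 1 to 3. The deviations of Pramel7 were 0.84, 0.48 and -1.32 (WT) against 0.06, -0.40 and 0.34 (STAT3-MER), in the same order of dishes. Those of Calcoco2 were 1.00, 0.13 and -1.12, then -0.02, -0.16 and 0.18. Rhox5 deviated by 0.40, 0.39 and -0.79 and by -0.11, -0.07 and 0.18. For all 4 genes WT replicate 3 was lowest in its group and STAT3-MER replicate 3 was highest in its group.

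**Figure D3:**
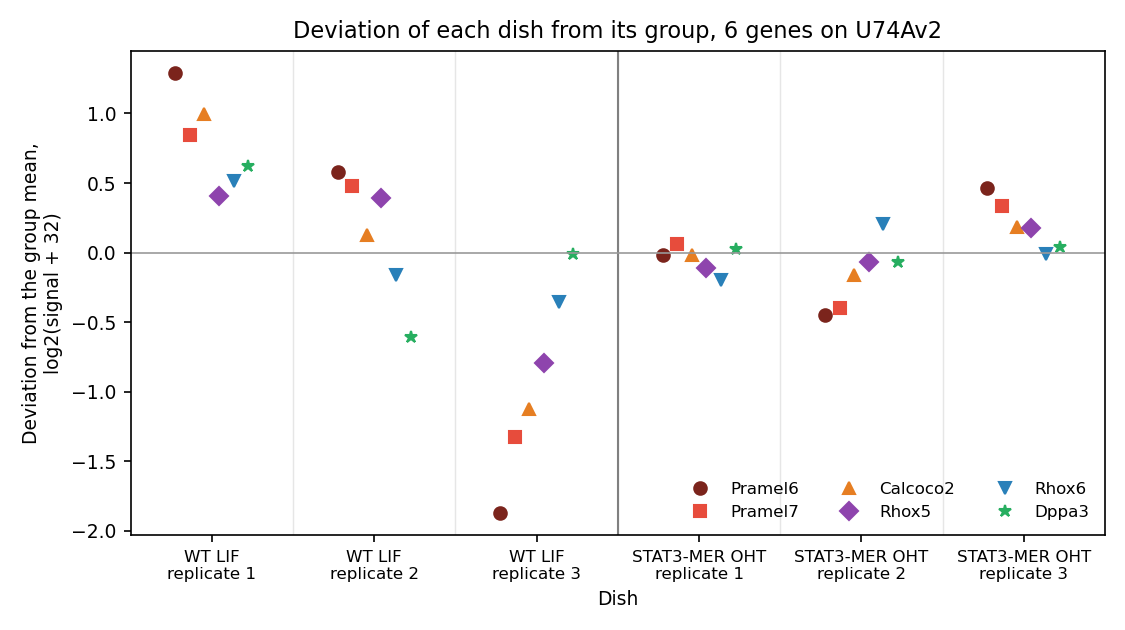
Deviation of each dish from the mean of its group, in log2(signal + 32), for the 6 genes read on U74Av2, with one colour and marker for each gene. Pramel6, Pramel7, Calcoco2 and Rhox5 are all below 0 in WT replicate 3 (Pramel6 at -1.87) and all above 0 in WT replicate 1 and STAT3-MER replicate 3, while Dppa3 is near 0 in all STAT3-MER dishes.

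Pearson's r of the deviations of Pramel6 with each probe set was computed over the 5034 probe sets of U74Av2 with 1 gene and a mean signal over 200, with all members ranked among them. Pramel7 was the first of them (r = 0.996), Calcoco2 the 9th (r = 0.974) and Rhox5 the 19th (r = 0.967). Pramel7 and Rhox5 had r = 0.965, Pramel7 and Calcoco2 0.955 and Calcoco2 and Rhox5 0.911. These values rest on 6 dishes of 2 cell lines, read on the same chip and scaled together, and largely on WT replicate 3. Without that dish r with Pramel6 was 0.968 for Pramel7 (rank 38), 0.864 for Calcoco2 (rank 181) and 0.653 for Rhox5 (rank 503), and among the other pairs it was 0.630 for Pramel7 and Rhox5, 0.734 for Pramel7 and Calcoco2 and 0.346 for Calcoco2 and Rhox5. STAT3-MER replicate 3, the highest dish, was left out too in an alternative chosen after the data were seen. The r with Pramel6 was then 0.938 for Pramel7, 0.929 for Calcoco2 and -0.28 for Rhox5. For the pairs without Pramel6 it was -0.59 (Pramel7 and Rhox5), 0.743 (Pramel7 and Calcoco2) and 0.097 (Calcoco2 and Rhox5). The r of Pramel6 and Pramel7 was thus at least 0.938 in every setting run, whereas Rhox5 followed the pair largely through these dishes. The lowest value says little about how stable the likeness is. It rests on a single pair of dishes in each group, and its rank among the probe sets is not given.

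**Figure D4:**
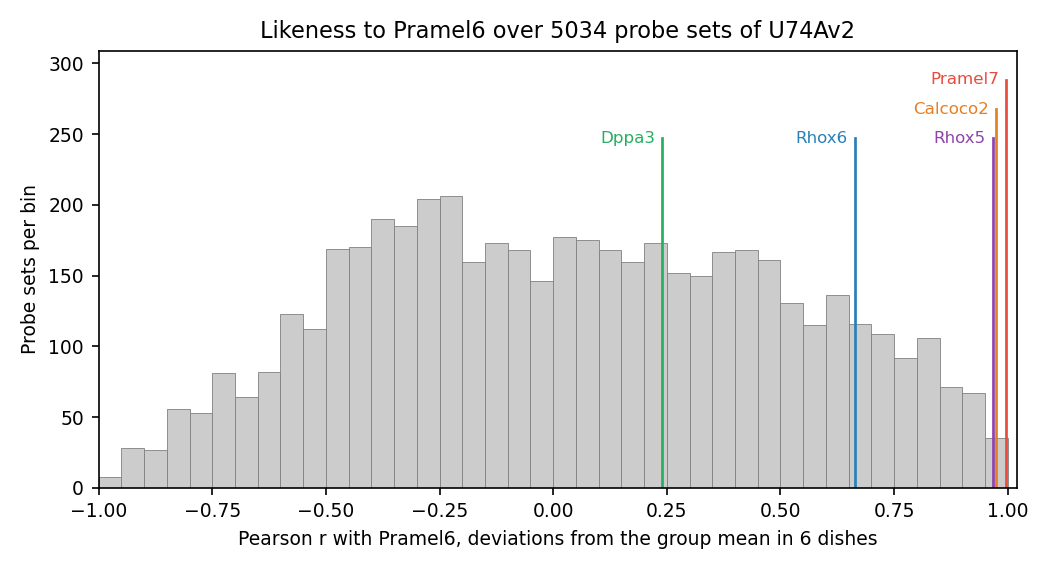
Number of probe sets of U74Av2 (bins of r, grey bars) by Pearson's r of their deviations from the group mean with those of Pramel6 over 6 dishes. The 5034 probe sets have 1 gene and a mean signal over 200, except Rhox6, which is dimmer and was ranked as a member. Coloured lines mark the other genes read on this chip. Pramel7 (0.996), Calcoco2 (0.974) and Rhox5 (0.967) lie in the last bin, with Rhox6 at 0.664 and Dppa3 at 0.24.

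Dppa3 and Rhox6 did not hold a stable relation to these genes. The r of Dppa3 with Pramel6 was 0.24 over all dishes, and it was -0.86 without WT replicate 1 and 0.99 without WT replicate 2. With Rhox5 it ran from -0.93 to 0.97 over the same settings. Rhox6 had r = 0.664 with Pramel6, 0.614 with Rhox5 of its own cluster and 0.796 with Calcoco2. The first was 0.24 and the last 0.304 without WT replicate 1, and that with Rhox5 was 0.087 without WT replicate 3. Rhox9 cannot be set against them dish by dish.

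When the groups were not centred, the same genes were found. Among 5033 probe sets of U74Av2, the nearest to Pramel6 over the 6 dishes were Pramel7 (r = 0.998), Calcoco2 (r = 0.988) and Rhox5 (r = 0.986). After Pramel6 and Rhox5, the nearest to Pramel7 was Rab21, a small GTPase of endosomes (r = 0.980), and Rab21 also followed the PRAMEL genes for Rhox5 (r = 0.977). Rab21 itself moved little, from 267 in WT replicate 3 to 382 in STAT3-MER replicate 3. For Calcoco2, Mapt, the gene of tau, followed Pramel6 and Pramel7 (r = 0.965). As 5 of the 7 genes were picked for a difference between these groups, an r without centring is in part the choice itself. The number of probe sets with r over 0.95 was 10 for Pramel6 and 9 for Pramel7.

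The nearest genes of the other members were different. For Dppa3 they were Pbrm1, a subunit of a SWI/SNF remodelling complex (r = 0.990), Uri1, a prefoldin-like protein (r = 0.961), and Rcbtb1 (r = 0.960). Pbrm1 gave 962, 698 and 777 (WT replicates 1 to 3) against 579, 538 and 581 (STAT3-MER replicates 1 to 3). For Rhox6 they were Apoc1, an apolipoprotein gene (r = 0.998), the mitochondrial carrier gene Slc25a39 (r = 0.989) and Pkp2, a plakophilin of desmosomes (r = 0.985). Apoc1 read 1736, 607 and 464 (WT replicates 1 to 3) against 519, 1037 and 752 (STAT3-MER replicates 1 to 3), with the same dishes high in each group as for Rhox6. For Rhox9 they were Hapln3, a link protein of hyaluronan (r = 0.980), Gpr107 (r = 0.978) and Tenm1, a teneurin (r = 0.977), all over 4333 probe sets of U74Cv2. Such values were not rare over 6 dishes, with 24 probe sets over 0.95 for Rhox6, 16 for Rhox9 and 6 for Dppa3.

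The measured genes nearest to each member on the chromosome were chosen by position in RefSeq order, and the groups overlapped on all of them that are no members. Their log2 fold changes ran from -0.66 ± 0.46 for Gm9 to 0.58 ± 0.54 for Rnf113a1, the genes before Rhox5, both read on U74Cv2. Olfr1264, an olfactory receptor gene on the far side of Pramel6 from Pramel7, read 119.9, 100.1 and 50.3 (WT replicates 1 to 3) against 76.7, 85.2 and 108 (STAT3-MER replicates 1 to 3). Its groups overlapped, with a log2 fold change of 0.04 ± 0.32, but its deviations had r = 0.964 with those of Pramel6, again with WT replicate 3 as the lowest dish. Fads2b, on the other side of Pramel7, was read on U74Cv2 and overlapped too (90.7 ± 66.2 (WT) against 154 ± 104 (STAT3-MER), SD, n = 3 each), with a log2 fold change of 0.50 ± 0.64. The 4 nearest measured genes of Calcoco2, which are Ube2z, Atp5g1, Ttll6 and Hoxb13, had log2 fold changes between -0.40 and 0.21.

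Dppa3 lies between Gdf3 and Nanog in the order of measured genes. Gdf3, a TGF-β family ligand, gave 1782 ± 292 (WT) against 1918 ± 588 (STAT3-MER), and Nanog, the homeobox factor of pluripotent cells, 9605 ± 3979 and 10107 ± 1505 (SD, n = 3 each). The dishes of the groups overlapped for both, with log2 fold changes of 0.07 and 0.14, where that of Dppa3 was -1.09. Slc2a3, a glucose transporter gene next to Nanog, had r = 0.937 with Dppa3 by deviations, but its log2 fold change was -0.02 ± 0.44. That r rests almost wholly on the WT dishes, as Dppa3 deviated by only 0.03, -0.07 and 0.04 in STAT3-MER replicates 1 to 3.

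The PRAME family was followed through a list of 21 genes, of which 7 were measured. The median log2 fold change was 0.49 with Pramel6 and Pramel7 in it, where the median over 15964 genes was 0.0026. At an adjusted p under 0.05 (limma) 0 were called. At an unadjusted p under 0.05 (limma) 2 were higher, Pramel6 and Pramel7, both chosen on this contrast, where 1.86% of all probe sets were. Beside these, the brightest of the list was Pramel12, with 6691, 8885 and 4771 (WT replicates 1 to 3) against 7127, 10795 and 10205 (STAT3-MER replicates 1 to 3) on U74Cv2. Its groups overlapped, with a log2 fold change of 0.49 ± 0.27, and WT replicate 3 was the lowest dish here too. When every gene with a current symbol of the Pramel or Oog kind was taken in place of the list, 11 genes were measured, 8 of them higher and 3 lower, with a median of 0.28. The large differences were those of the pair Pramel6 and Pramel7, while the other 9 ran from -0.82 to 0.49.

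Of 22 genes of the Rhox cluster, 4 were measured, with a median log2 fold change of 0.18, which was 0.67 without WT replicate 2 and -0.11 without WT replicate 3. None passed the adjusted p (limma). Rhox5 alone, chosen on this contrast, was higher at an unadjusted p under 0.05 (limma), where 1.86% of all probe sets were. Rhox13, a homeobox gene at the edge of the cluster known from germ cells, read 9545, 10609 and 4068 (WT replicates 1 to 3) against 7229.7, 8355 and 10547 (STAT3-MER replicates 1 to 3) on U74Cv2. The groups overlapped, with a log2 fold change of 0.21 ± 0.35, and WT replicate 3 was the lowest dish and STAT3-MER replicate 3 the highest of its group, as for Rhox5, but the highest dish of all was WT replicate 2. Numbers 3 of U74Av2 and U74Cv2 resembled each other only weakly over the genes on both chips (r = 0.19 for WT, 0.09 for STAT3-MER).

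Genes described together with Pou5f1, the gene of OCT-3/4, include the Dppa genes, the Pramel genes and Calcoco2. Of 11 such genes 9 were measured, 5 of them higher and 4 lower, and 0 passed the adjusted p (limma), with 3 higher and 1 lower at an unadjusted p under 0.05, all of them members and chosen on this contrast (1.86% and 1.58% of all probe sets had such a p). The brightest was Dppa5a, an RNA-binding protein gene of ES cells, with 31433 ± 10667 (WT) against 24899.8 ± 1224 (STAT3-MER; SD, n = 3 each). Dppa2 gave 6362 ± 2909.5 and 8437 ± 4944.5 and Dppa4, its partner in a chromatin-bound pair, 6037 ± 1459 and 6192 ± 2269. On all 3 the groups overlapped, with log2 fold changes of -0.28, 0.28 and -0.01, so that Dppa3 was the Dppa gene with a gap between the groups. The list's median of 0.28 rests on these few genes and ran from -0.12 without STAT3-MER replicate 3 and -0.03 without WT replicate 1 to 0.88 without STAT3-MER replicate 2.

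Germ cell and oocyte genes include Dppa3. Of 38 such genes 29 were measured, 15 higher and 14 lower, with a median of 0.02, and 0 passed the adjusted p (limma). At an unadjusted p under 0.05 (limma) there were 0 higher and 2 lower, against 1.86% and 1.58% of all probe sets. These were Dppa3, chosen on this contrast, and Padi6, the gene of an oocyte cytoplasmic enzyme. Ooep, a component of the maternal complex under the oocyte membrane, gave 13036 ± 5280.5 (WT) against 9434 ± 2272 (STAT3-MER), Ifitm3 4872 ± 1032 and 4217 ± 946, and Khdc3, a partner of Ooep, 4278 ± 3679 and 3211 ± 1550.4 (SD, n = 3 each). The groups overlapped on all 3. Padi6 read 507, 307 and 238 (WT replicates 1 to 3) against 128, 146 and 215 (STAT3-MER replicates 1 to 3), with no overlap and a log2 fold change of -0.94 ± 0.42. Among the 29, groups without overlap were seen for 1 higher and 2 lower, where 4.47% and 3.65% of all probe sets had such groups. The higher one was Nobox, at 85.8, 68.4 and 92.5 (WT replicates 1 to 3) against 110, 122 and 105 (STAT3-MER replicates 1 to 3).

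Of 23 genes of the early embryo other than the members 17 were measured, 10 higher and 7 lower, with a median of 0.04. None passed the adjusted p or an unadjusted p under 0.05 (limma), and the groups overlapped on each of them. Dppa5a, Dppa2 and Dppa4 are the brightest of this list as well. Of 18 genes of autophagy receptors and their partners 16 were measured, 7 higher and 9 lower, with a median of -0.03. Calcoco2, chosen on this contrast, was the one that was higher at an unadjusted p under 0.05 (limma), where 1.86% of all probe sets were. The adjusted p was passed by 0. Gabarapl2, of the protein family that such receptors bind, gave 2419.7 ± 512 (WT) against 3018 ± 978 (STAT3-MER). The receptor genes Nbr1 (2784 ± 430.4 and 2639 ± 339.99) and Sqstm1 (2022 ± 356 and 2756 ± 710.4) overlapped between the groups as well, with log2 fold changes of 0.29, -0.07 and 0.42 for the 3 genes in this order.

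Genes of the NuRD complex, a chromatin remodelling and histone deacetylase complex, and of DNA methylation, among them Uhrf1, were measured for 21 of 24. Of these 12 were higher and 9 lower, 0 passed the adjusted p or an unadjusted p under 0.05 (limma), and the median was 0.02. The brightest were Trim28, a co-repressor (21171 ± 4156 (WT) against 20234 ± 4054 (STAT3-MER)), Dnmt3l, the regulator of de novo methylation (9049 ± 3908 and 10263 ± 7372), and the histone-binding subunit gene Rbbp7 (8385 ± 1027 and 8315 ± 1830.4), all overlapping between the groups. Uhrf1 was named for its link to the members, after its values were seen. That link is to the UHRF1 protein, which RNA signals do not show. Uhrf1 read 742, 1875 and 1689 (WT replicates 1 to 3) against 2197, 782 and 2092 (STAT3-MER replicates 1 to 3). WT replicate 1 and STAT3-MER replicate 2 were low and the other dishes alike, so that the groups overlapped, with a log2 fold change of 0.20 ± 0.47. Dnmt1, the methyltransferase that UHRF1 guides, gave 2179.5 ± 419.5 and 2802 ± 141, a log2 fold change of 0.37 ± 0.19.

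Markers of ES cells and of other cells were read in the same dishes. Of 19 ES cell markers all were measured and 0 passed (limma), with a median log2 fold change of 0.14, and Dppa5a, Sox2 (11314 ± 2240.5 and 10879 ± 1057) and Nanog were the brightest. Their summed signal on U74Av2 was 95737, 85989 and 66567 (WT replicates 1 to 3) against 82879, 75331.5 and 87942 (STAT3-MER replicates 1 to 3). The groups overlapped, and Dppa5a made up much of the WT sums, with 43366, 28109 and 22824 in WT replicates 1 to 3. Of 28 markers of feeder fibroblasts 26 were measured and 25 were lower in STAT3-MER cells, with a median of -0.23. Without STAT3-MER replicate 1, the dish with the lowest sum of these markers, the median was 0.23, and it was -0.05 without WT replicate 3 and -0.61 without WT replicate 2. None of the 26 had groups without overlap, and 0 passed (limma), at an unadjusted p under 0.05 too. The sum over the 24 on U74Av2 was 59768, 26779 and 75234 (WT replicates 1 to 3) against 15315, 67475 and 59765 (STAT3-MER replicates 1 to 3). WT replicate 3 had the highest fibroblast sum and the lowest Pramel6. WT replicate 1 had the middle sum and the highest Pramel6, and WT replicate 2 the lowest sum and the middle Pramel6. In STAT3-MER cells the dishes with the highest and the lowest fibroblast sum, replicates 2 and 1, were the lowest and the middle dish for Pramel6. The part of these cells in the members' signals was not tested. The brightest fibroblast markers were Col1a2, Acta2 and Bgn, at 7687 ± 3062, 6295 ± 4474 and 5942 ± 3359 (WT) against 7652 ± 5337, 5457 ± 4532 and 5072 ± 3308 (STAT3-MER; SD, n = 3 each).

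Primitive endoderm markers (19 of 20 measured, median 0.04) and trophectoderm markers (16 of 18, median -0.11) had 0 calls (limma) and 0 at an unadjusted p under 0.05. Their summed signals on U74Av2 overlapped between the groups. For primitive endoderm they ran from 5401 to 13240.5 (WT) and from 5251 to 12005 (STAT3-MER). For trophectoderm they ran from 3830.2 to 7708 (WT) and from 4135 to 6729 (STAT3-MER). No marker was at 0, and 2 of the 12 trophectoderm markers of the chip were among the dimmest 25% of the array in every dish. The brightest were Amn, Sparc and Col4a1 for primitive endoderm, with log2 fold changes of 0.04, 0.11 and -0.13, and Tfap2c, Tfap2a and Ascl2 for trophectoderm, with 0.34, 0.12 and -0.37. All 6 overlapped between the groups.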

How the data were processed

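RNA of 6 dishes was read on 18 arrays. For each array the authors deposited linear signal intensities, 1 for every probe set and without detection calls. MAS5 is the tool in the submitters' processing notes, and its version is not given in the sources used here. The study itself worked with dChip values, which were not used here. Signals were scaled to the mean trimmed mean of each chip. They were compared as log2(signal + 32) with limma 3.58.1 in R 4.3.3 (lmFit, eBayes with trend, 1 fit per chip, two-sided, Benjamini-Hochberg over 36701 probe sets, threshold 0.05), which was tested on simulated data. No dim probe sets were left out. The number of arrays limits the precision. Gene names come from the chip annotation, updated through RefSeq. For lists, 1 probe set per gene was used, without a cross-hybridization suffix where possible, then the brightest. The members, lists and tests were chosen with earlier results of these data known. Named were all members, the 3 brightest genes of each list, genes past the threshold and the 3 genes of the same chip most like each member. Neighbours were named by position, and Padi6, Nobox, Uhrf1 and Dnmt1 after their values were seen. Alternatives were other scalings, a pseudocount of 8 or 100, dim probe sets filtered out, no trend, adjustment within chips, a replicate block, the methods' t-test and single dishes left out. Listing the PRAME family by symbol and leaving out both replicates 3 were added after seeing the data. Promoter sequences are those of RefSeq (GRCm38.p6), found for 3 of 7 genes.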

Additional observations from a re-analysis of the deposited data

How the results depend on the processing

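All 7 log2 fold changes were recomputed under 12 alternatives. Those of Pramel6, Pramel7, Calcoco2, Rhox5 and Dppa3 ran from 1.47 to 3.06, 1.01 to 2.09, 0.81 to 1.87, 0.57 to 1.16 and -1.40 to -0.78, where groups without overlap leave no room for another sign when a dish is left out. Those of Rhox6 (-0.23 to 0.20) and Rhox9 (-0.49 to 0.89) each took the other sign in 2. The number of probe sets called by limma was 1 to 2 with a dish left out, where 2 was the count without WT replicate 3, and with the methods' t-test criteria it was 725 (unequal variances) and 957 (equal variances), of which 4 and 5 were members. Under every limma setting 0 members and 0 listed genes were called. The r of Pramel6 and Pramel7 ranged from 0.968 to 0.998 with a dish left out. It was 0.938 without both replicates 3, which leaves a single pair of dishes in each group. The other r between members moved with the dish left out, down to -0.93 for Rhox5 and Dppa3. The list medians moved beyond the spread between dishes in 3 cases and not in 189, but in 9 of 12 lists a left-out dish could turn the sign, as for the feeder fibroblast markers (0.23 without STAT3-MER replicate 1). The replicate number as a block gave 1 probe set called and 0 members and left each fold change as it was (Pramel6 2.41), with a standard error for Rhox9 of 0.18 in place of 0.72. The numbers were not taken to pair the dishes of the members. Deviations of equal numbers correlated at -0.30, -0.33 and 0.29 on U74Av2, where the highest values were those of WT replicate 1 with STAT3-MER replicate 2 (0.46) and of WT replicate 2 with STAT3-MER replicate 1 (0.41). On U74Bv2 they were 0.18, 0.21 and 0.13 and on U74Cv2 0.11, 0.13 and 0.07, and there each dish was most like its own number, a hint from the data and not the design. The block therefore says nothing of a pairing in another order on U74Av2, which was not run. With 3 dishes a group and no detection calls, a dim probe set such as that of Rhox6 gives no usable bound.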

Other observations

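Rhox6, though dim in every dish, had its highest signals in dishes that other genes of U74Av2 also set apart. On U74Av2, WT replicate 1 and STAT3-MER replicate 2 were the highest dishes of their groups for Rhox6, and likewise for genes picked after their values were seen. Dazl, a germ cell RNA-binding protein gene, read 5188, 2442 and 467 (WT replicates 1 to 3) against 2132, 4759 and 945 (STAT3-MER replicates 1 to 3). Kit, the receptor of stem cell factor, read 1233, 369 and 351 (WT replicates 1 to 3) against 540.2, 1364 and 723 (STAT3-MER replicates 1 to 3). The reverse held for Pou5f1, with 2159, 5830.3 and 5048 (WT replicates 1 to 3) against 6527, 3563 and 8350.1 (STAT3-MER replicates 1 to 3), and for Utf1, with 2907, 8371 and 5548 (WT replicates 1 to 3) against 7329, 2892 and 6872 (STAT3-MER replicates 1 to 3). Both were lowest in WT replicate 1 and STAT3-MER replicate 2. By the comparison of genes read on 2 chips, WT replicate 1 of U74Av2 weakly resembles WT replicate 2 of U74Cv2 (r = 0.24), where Rhox9 was highest. The dishes were not joined on this, and Rhox9 was not set against Rhox6.

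Tcstv1 and Tcstv3, genes of the embryo at its first cleavage, were low in WT replicate 3 as Pramel6 was. Tcstv1 read 743, 1092 and 143 (WT replicates 1 to 3) against 391.7, 436 and 369 (STAT3-MER replicates 1 to 3), and Tcstv3 373, 538 and 99.9 (WT replicates 1 to 3) against 192, 202 and 173 (STAT3-MER replicates 1 to 3). Their STAT3-MER dishes lay inside the range of the WT dishes. These genes were picked after their values were seen, and no test was made.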
